A study of Arabidopsis thaliana with 9 samples.

Results

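The SWEET genes, here 10 members of the family, were followed across 3 cultures of Arabidopsis cotyledons that differ in how far they induce phloem companion cells (CC). SWEET proteins are membrane carriers that let sugars pass down their concentration gradient. The 10 genes are SWEET9, SWEET10, SWEET11, SWEET13, SWEET14 and SWEET15 of clade III, SWEET1 of clade I, SWEET4 of clade II, and the vacuolar SWEET16 and SWEET17 of clade IV. They were chosen by name, with earlier results of these data known. Each is represented by the brightest probe set that names it alone. All 10 had exactly 1 such probe set. They are 10 of the 16548 genes with a single-gene probe set, and of the 17 SWEET genes of this plant 6 others were also measured.

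In leaves, sucrose passes out of the phloem parenchyma through clade III SWEET proteins, enters the cell wall space, and is taken up into companion cells and sieve elements by proton-coupled sucrose carriers. Clade I and II members move mainly glucose and other hexoses. Clade IV members sit in the tonoplast, the membrane around the vacuole, and pass fructose and other sugars between vacuole and cytosol, so not every carrier in the set is an exporter at the cell surface.

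The 9 samples were of wild-type Col-0, taken from cotyledons of 6-day-old seedlings. Per the labels, the cotyledons spent 48 hours in VISUAL medium with 2,4-D at 1.25 mg per litre, kinetin at 0.25 mg per litre and the GSK3 inhibitor bikinin at 10 µM, then went to CC induction medium and were sampled 96 hours after induction. The 3 groups of 3 arrays are CC-S, which induces CC strongly, CC-M, which induces them moderately, and VISUAL, which does not. All 9 samples carry the same protocol text, which leaves the difference between their media unstated. Whether the 3 samples of 1 group were cultured apart is not stated either, and the p-values below then describe only how these samples scatter, which may be technical scatter.

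Values are the authors' log2 signals from one-colour Affymetrix arrays, whose medians over 38408 probe sets ran from 4.71 to 4.90. A gene is called when limma's moderated test gives a Benjamini-Hochberg adjusted p under 0.05 over all 38408 probe sets. A log2 change is the mean of the group named first minus the mean of the other, intervals of a change are at 95% and not adjusted, and levels of different genes are not compared, because each probe set has its own brightness. Precision is limited by the 3 arrays of a group. The submitters' table has no detection call, so no SWEET gene could be called present or absent.

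In CC-S, 3 of the 10 SWEET genes were higher than in VISUAL and none was lower. SWEET11, SWEET1 and SWEET4 rose 5.04-fold, 1.66-fold and 1.79-fold. Of all 38408 probe sets 19.2% were called in this comparison, 10.1% as higher and 9.07% as lower. The median log2 change was 0.49 over the 10 SWEET genes and 0.02 over all probe sets. The 6 other SWEET genes measured had no call and a median of -0.06. Because the 10 were chosen with earlier results known, their counts and medians are a description. In CC-M, 2 of the 10 were higher than in VISUAL and none was lower, against 11.6% of all probe sets called (6.49% higher, 5.15% lower). Those were SWEET4, at 2.43-fold, and SWEET17, at 1.77-fold, and the median change of the 10 was 0.25 against 0.02 over all probe sets. Both comparisons use the same VISUAL arrays. Only SWEET4 was called in both. Tested against a change of 1.5-fold in place of 0, none of these genes was called by limma, with the smallest adjusted p, 0.0815, for SWEET11 in CC-S.

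**Figure D1:**
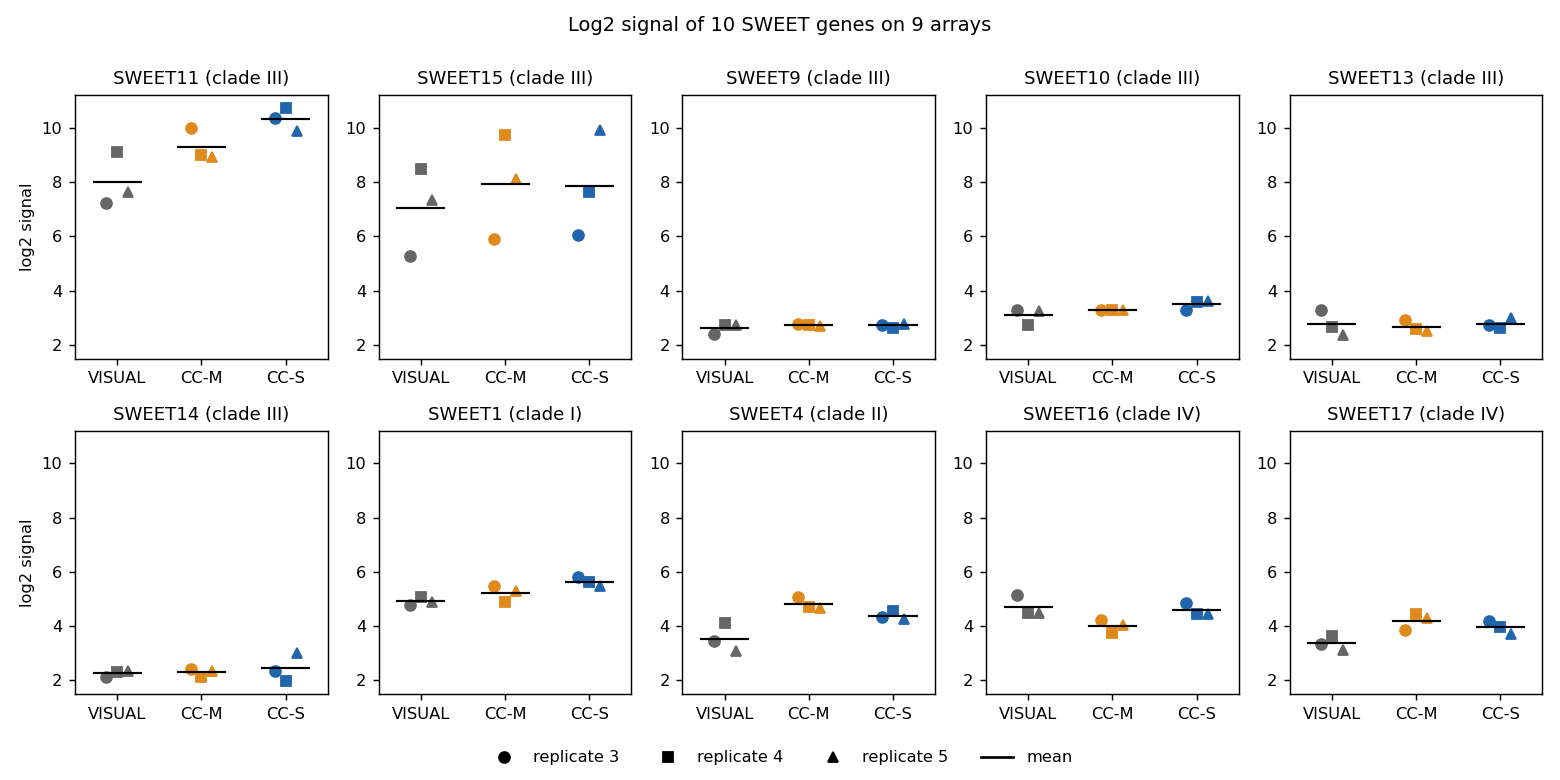
Log2 signal (vertical axis) of the 10 SWEET genes in the VISUAL, CC-M and CC-S groups; each point is 1 array, its shape gives the replicate number and the bar is the group mean. SWEET11 has the CC-S arrays at 9.88 to 10.75, above all VISUAL arrays, whereas the SWEET15 arrays spread from 5.29 to 9.91 with every group overlapping.

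Of the clade III genes, SWEET11 (AT3G48740) showed the only called change. With its close relative SWEET12, SWEET11 releases sucrose from phloem parenchyma of the leaf vein. Its log2 signal was 10.35, 10.75 and 9.88 in CC-S replicates 3, 4 and 5, 9.99, 8.99 and 8.94 in the CC-M replicates, and 7.22, 9.1 and 7.65 in the VISUAL replicates. Every CC-S array lay above every VISUAL array. The CC-M arrays overlapped both other groups, and VISUAL replicate 4 stood above the other VISUAL arrays and above 2 of the CC-M arrays. The group means ran in the order CC-S, CC-M, VISUAL, at 10.33 ± 0.44, 9.31 ± 0.59 and 7.99 ± 0.98 (SD, n = 3 each).

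The log2 change of SWEET11 from VISUAL to CC-S was 2.33 (SE 0.48, interval 1.23 to 3.44, limma adjusted p = 0.0101). Between CC-M and VISUAL the change was 1.31 (SE 0.48, interval 0.21 to 2.42), which was not called (limma adjusted p = 0.131). Between CC-S and CC-M the difference was 1.02, with an interval from -0.08 to 2.12 (limma adjusted p = 0.435). Neighbouring groups in this order therefore did not differ beyond the threshold, and only the ends did. The CC-S call held when any 1 of the 9 arrays was left out, with limma adjusted p from 0.00192 to 0.0439. For CC-M a call appeared in 1 such fit: without VISUAL replicate 4 the change was 1.87 (limma adjusted p = 0.0171), against 0.0171 to 0.335 over all 9.

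These are whole cultured cotyledons, in which fewer cells of a type and less RNA per cell cannot be told apart. The induction of CC identity was read from SAPL (AT3G12730), a MYB-type factor gene active in companion cells. SAPL gave 8.42, 8.85 and 8.43 in CC-S, 7.99, 7.43 and 7.52 in CC-M and 4.87, 5.66 and 6.03 in VISUAL. No group overlapped another. Of all probe sets, 17.2% had CC-S fully above VISUAL, 14.7% CC-M above VISUAL and 9.03% CC-S above CC-M. SAPL changed by 3.04 for CC-S and 2.12 for CC-M against VISUAL (limma adjusted p = 0.000222 and 0.00239). Its CC-S minus CC-M difference of 0.92 was not called (limma adjusted p = 0.21). For this gene both cultures were called above VISUAL, while strong and moderate induction were apart only by the order of their arrays. Only 2 of the 10 companion cell markers listed for this check were measured, SAPL and SWEET13. Of 12 phloem parenchyma markers 2 were measured, SWEET11 and SWEET13 themselves, so no other listed marker of that cell type was available under this annotation. Probe sets that are unnamed or name several genes were not searched.

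Some markers of other tissues were called too, in comparisons where 19.2% (CC-S) and 11.6% (CC-M) of all probe sets were called against VISUAL. The summed linear signal of the companion cell list was 348 to 469 in CC-S, 178 to 261 in CC-M and 39 to 71 in VISUAL. That sum holds only SAPL and the dim SWEET13, so it follows SAPL and adds no further marker. For 3 of 14 xylem vessel markers measured, the sum was 996 to 1641 in CC-S, 1002 to 1754 in CC-M and 2062 to 2969 in VISUAL, and 2 of the 3 were called lower in each comparison with VISUAL. For procambium and cambium, with 5 of 11 measured, it was 991 to 1185, 922 to 1072 and 596 to 806 in CC-S, CC-M and VISUAL, and 2 of the 5 were called higher in CC-S and none in CC-M. The 6 of 10 mesophyll and photosynthesis markers measured summed to 2181 to 2278 in CC-S, 2491 to 2610 in CC-M and 1925 to 2554 in VISUAL; 2 were called higher and 1 lower in CC-S, and 1 each way in CC-M. Stomatal lineage markers (3 of 6 measured) summed to 167 to 187, 183 to 232 and 198 to 254 in the same order, with none called. The 1 of 9 sieve element markers measured, CLE45, gave a linear signal of 3 to 5 on every array and was not called. The part of these markers in the SWEET results was not tested.

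SWEET15 (AT5G13170), also known as SAG29, is a clade III sucrose carrier induced in senescing leaves and active in seed filling. Its log2 signal was 6.04, 7.65 and 9.91 in CC-S replicates 3, 4 and 5, 5.91, 9.75 and 8.11 in CC-M, and 5.29, 8.47 and 7.34 in VISUAL. Each group overlapped both others. Within a group the highest and the lowest array differed 14.6-fold in CC-S, 14.4-fold in CC-M and 9.06-fold in VISUAL, and replicate 3 was the lowest array in each group. The pooled SD within groups was 1.83 on the log2 scale, against a median of 0.204 over all probe sets.

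With that spread the changes of SWEET15 were poorly resolved. The log2 change was 0.83 in CC-S (interval -2.02 to 3.67, limma adjusted p = 0.729) and 0.89 in CC-M (limma adjusted p = 0.746) against VISUAL. The difference between CC-S and CC-M was -0.06, with an interval from -2.90 to 2.78 (limma adjusted p = 0.991). Group membership accounted for 6.8% of its variance over the 9 arrays, compared with 73.2% for SWEET11 and a median of 38.1% over all probe sets. Of 9 senescence markers 2 were measured, SWEET15 itself and SAG101, and their sum of 126 to 1014 in CC-S, 134 to 929 in CC-M and 108 to 422 in VISUAL follows SWEET15. SAG101 had a change of -0.23 in CC-S against VISUAL, with all CC-S arrays lower, and of 0.03 in CC-M (limma adjusted p = 0.156 and 0.892), neither called.

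The other 4 clade III genes gave dim signals that differed little between groups. SWEET9 acts in nectar secretion, SWEET10 is a sucrose carrier induced at the shoot apex on the transition to flowering, and SWEET13 and SWEET14 act in anthers and also carry gibberellin. The means of all 4 lay in the dimmest 30% of probe sets. SWEET9 ran from 2.41 to 2.77 over the 9 arrays and SWEET14 from 1.97 to 3.0. SWEET13 ran from 2.37 to 3.27, with the highest and the lowest value both in VISUAL. At this brightness the probe sets give little room to see a fall, and some arrays shared exactly equal values (3 arrays for SWEET9, 4 for SWEET10 and 3 for SWEET14).

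SWEET10 was 3.29, 3.60 and 3.61 in CC-S, 3.27, 3.29 and 3.29 in CC-M and 3.29, 2.75 and 3.24 in VISUAL. Its CC-S mean was the highest of the 3, and CC-S and VISUAL met at a shared 3.29. The change from VISUAL to CC-S was 0.41 (SE 0.18, interval 0.01 to 0.81, limma adjusted p = 0.159), not called. For SWEET9, SWEET13 and SWEET14 the same change was 0.10, 0.03 and 0.18 (limma adjusted p = 0.679, 0.962 and 0.699). In CC-M against VISUAL the 4 genes differed by -0.10 to 0.19, none of them called. SWEET10 and SWEET13 are neighbours on chromosome 5, with 0 genes annotated between them in TAIR10.1, yet neither was called and their signals correlated at only r = 0.21 over the 9 arrays.

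SWEET1 (AT1G21460), a glucose carrier of the plasma membrane, was the clade I gene of the set. Its log2 signal was 5.81, 5.63 and 5.49 in CC-S, 5.48, 4.88 and 5.28 in CC-M, and 4.76, 5.08 and 4.89 in VISUAL. All CC-S arrays were above all arrays of both other groups, and CC-M overlapped VISUAL through its replicate 4. Means were 5.64 ± 0.16, 5.21 ± 0.30 and 4.91 ± 0.16 (SD, n = 3 each), the same order as for SWEET11.

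SWEET1 rose by 0.73 in CC-S over VISUAL (SE 0.17, interval 0.34 to 1.13, limma adjusted p = 0.0182). In CC-M the change was 0.30 and not called (limma adjusted p = 0.347), and between CC-S and CC-M it was 0.43 (interval 0.04 to 0.83, limma adjusted p = 0.341). The CC-S call was lost, at a change of 0.65 to 0.74, without CC-S replicate 3, CC-S replicate 4, VISUAL replicate 3 or VISUAL replicate 5 (limma adjusted p = 0.0685, 0.0561, 0.0595 and 0.0539), and over all 9 fits that left out an array the adjusted p ran from 0.0111 to 0.0685. SWEET1 and SWEET11 followed each other over the 9 arrays with r = 0.91 (Spearman 0.88), and with r = 0.69 after subtracting group means. Among all pairs of measured SWEET genes this was the highest r over the arrays. SWEET4 with SWEET17 gave 0.83 (Spearman 0.82), and 0.33 after subtracting group means. SWEET4 with SWEET11 gave 0.74 (Spearman 0.47), and 0.86 after subtracting group means. SWEET8 with SWEET11 gave -0.72 (Spearman -0.87) and -0.82. The pairs named were picked from all pairs of measured SWEET genes, and their values describe 9 arrays that share their normalization.

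SWEET4 (AT3G28007), a clade II glucose carrier of veins and other axial tissues, was the gene of the set called in both comparisons with VISUAL. It gave 4.35, 4.54 and 4.26 in CC-S, 5.08, 4.72 and 4.67 in CC-M, and 3.45, 4.1 and 3.08 in VISUAL. The 3 groups did not overlap, and the order was CC-M, CC-S, VISUAL, with means of 4.82 ± 0.22, 4.38 ± 0.14 and 3.54 ± 0.52 (SD, n = 3 each). In contrast to SWEET11 and SWEET1, the moderate induction gave the highest arrays. The VISUAL mean was dim, under the 4.07 that bounds the dimmest 40% of probe sets by their mean over all arrays.

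For SWEET4 the log2 change against VISUAL was 1.28 in CC-M (SE 0.25, interval 0.71 to 1.85, limma adjusted p = 0.0132) and 0.84 in CC-S (SE 0.25, interval 0.27 to 1.41, limma adjusted p = 0.0471). CC-S minus CC-M was -0.44, with an interval from -1.01 to 0.13 (limma adjusted p = 0.526). The CC-S call lay close to the threshold, and was lost with no intensity trend (limma adjusted p = 0.0506) or with only the groups compared (0.093). It was also lost without any of 8 arrays, all but VISUAL replicate 4: limma adjusted p was 0.105, 0.144 and 0.0766 without CC-S replicate 3, 4 or 5, 0.0566, 0.0701 and 0.0669 without CC-M replicate 3, 4 or 5, and 0.121 and 0.129 without VISUAL replicate 3 or 5, and without VISUAL replicate 4 it was 0.0067. The CC-M call was lost only without CC-M replicate 3 (change 1.15, limma adjusted p = 0.0509), and over the 9 fits its adjusted p ran from 0.00283 to 0.0509.

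**Figure D2:**
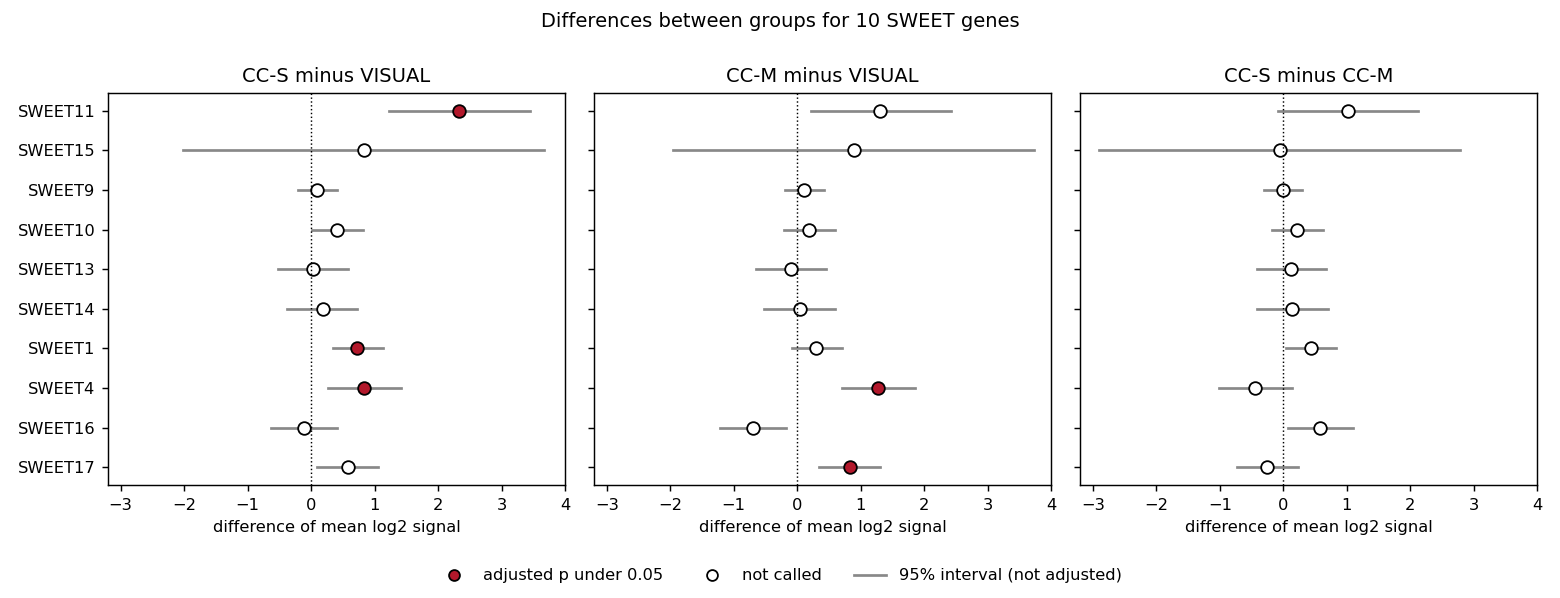
Log2 change (horizontal axis, difference of mean log2 signal) of each SWEET gene in the 3 pairwise comparisons, with unadjusted 95% intervals; filled points are called at an adjusted p under 0.05. SWEET11, SWEET1 and SWEET4 are filled for CC-S minus VISUAL, SWEET4 and SWEET17 for CC-M minus VISUAL, and none for CC-S minus CC-M; SWEET15 has the widest interval.

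The tonoplast carriers SWEET16 and SWEET17 are close relatives, and in roots and leaves of this plant SWEET17 controls fructose content while SWEET16 moves glucose, fructose and sucrose. SWEET17 (AT4G15920) gave 4.18, 3.95 and 3.71 in CC-S, 3.86, 4.43 and 4.29 in CC-M, and 3.34, 3.65 and 3.11 in VISUAL. Each array of CC-S and of CC-M was above every VISUAL array, and CC-S and CC-M overlapped. SWEET16 (AT3G16690) gave 4.84, 4.45 and 4.45 in CC-S, 4.23, 3.74 and 4.04 in CC-M, and 5.15, 4.48 and 4.47 in VISUAL. Here the CC-M arrays were below all arrays of both other groups, which overlapped each other.

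SWEET17 rose by 0.83 in CC-M over VISUAL (SE 0.21, interval 0.34 to 1.31, limma adjusted p = 0.039). In CC-S its change was 0.58 (SE 0.21, interval 0.10 to 1.06, limma adjusted p = 0.0979), not called although the groups did not overlap. SWEET16 had a change of -0.69 in CC-M (SE 0.23, interval -1.21 to -0.18, limma adjusted p = 0.0883) and of -0.12 in CC-S (limma adjusted p = 0.796), neither called. The CC-M call of SWEET17 was lost without CC-S replicate 4, CC-M replicate 4, CC-M replicate 5, VISUAL replicate 3 or VISUAL replicate 5 (limma adjusted p = 0.0634, 0.131, 0.113, 0.0994 and 0.121), and over the 9 fits it ran from 0.0311 to 0.131. It was also lost with each array centred on its median (0.055) and with only the groups compared (0.0695). The call held with no intensity trend (0.0402) and with arrays weighted by quality (0.0323). It held barely with quantile normalization (0.0489) and with replicate number as a block (0.0499).

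The difference between the 2 tonoplast genes was also taken within each array. SWEET17 minus SWEET16 was -0.66, -0.50 and -0.74 in CC-S, -0.37, 0.69 and 0.25 in CC-M, and -1.81, -0.82 and -1.35 in VISUAL. The 3 groups of differences did not overlap, with CC-M highest and VISUAL lowest. The gaps were narrow, with -0.37 in CC-M next to -0.50 in CC-S, and -0.74 in CC-S next to -0.82 in VISUAL. How often other pairs of genes separate in this way was not computed. The sign of a difference has no meaning across probe sets of unlike brightness, so only the order of the arrays is read. It was looked at after the values of both genes were known and was not tested.

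**Figure D3:**
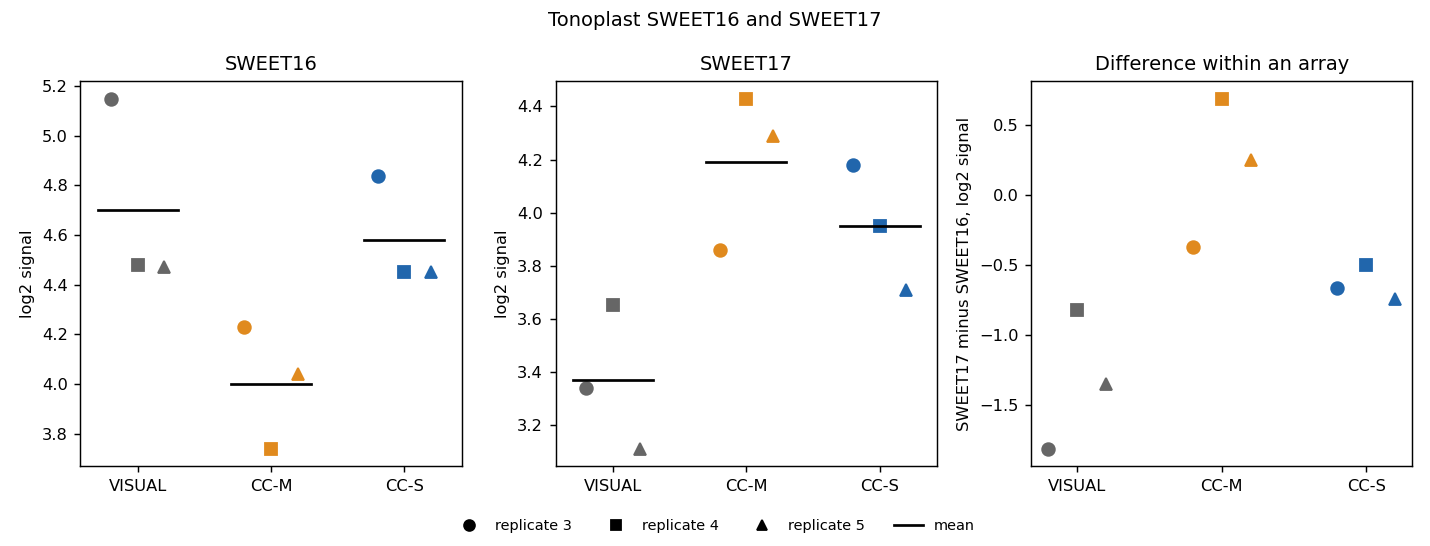
Log2 signal of SWEET16 (left) and SWEET17 (middle) per array, with bars at the group means, and the difference SWEET17 minus SWEET16 within each array (right); the vertical axes differ. In CC-M SWEET16 is at 3.74 to 4.23 and SWEET17 at 3.86 to 4.43, and the differences run from -0.37 to 0.69 in CC-M against -1.81 to -0.82 in VISUAL.

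Counted by overlap alone, 4 of the 10 genes (SWEET1, SWEET4, SWEET11, SWEET17) had all CC-S arrays above all VISUAL arrays and none had them below, where 17.2% and 15.4% of all probe sets did so. In CC-M against VISUAL 2 genes were fully higher (SWEET4, SWEET17) and 1 fully lower (SWEET16), with 14.7% and 12.9% of all probe sets as background. Both CC-M counts lie near their background. With only 10 genes, none of these counts is read as a result about the SWEET genes.

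CC-S against CC-M asks how strong and moderate induction differ. None of the 10 SWEET genes was called by limma, and 8 of 38408 probe sets were (0.0208%). That count rests on the settings: it was 310 without the dimmest 40% of probe sets and 847 with arrays weighted by quality. At an unadjusted p under 0.05 it was 2 of 10, SWEET1 (difference 0.43, limma unadjusted p = 0.0357) and SWEET16 (difference 0.58, limma unadjusted p = 0.0313), while 12.8% of all probe sets passed. By overlap, 2 genes were fully higher in CC-S (SWEET1, SWEET16) and 1 fully lower (SWEET4), beside 9.03% and 9.09% of all probe sets. A miss here does not show that the 2 cultures were alike: the interval for SWEET11 reached 2.12.

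A further contrast asked whether CC-M lay off the midpoint between CC-S and VISUAL. No SWEET gene was called by limma, while 1.29% of all probe sets were. At an unadjusted p under 0.05 it was 3 of 10 (SWEET4, SWEET16 and SWEET17), where 12.7% of all probe sets passed. SWEET4 was 0.86 above the midpoint (SE 0.22, limma adjusted p = 0.12), SWEET17 was 0.54 above (limma adjusted p = 0.249), and SWEET16 lay at -0.64 (limma adjusted p = 0.197). SWEET11 and SWEET1 lay at 0.15 and -0.06 (limma adjusted p = 0.934 and 0.919). Without VISUAL replicate 4, SWEET4 was called at 1.0 above the midpoint (limma adjusted p = 0.0252, against 0.0252 to 0.299 over the 9 fits).

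The 6 other SWEET genes measured showed no call by limma in any comparison, and 1 of them, SWEET8 between CC-S and CC-M, had an unadjusted p under 0.05. SWEET2, a glucose carrier of the tonoplast best known from roots, gave 8.12, 8.67 and 9.35 in CC-S, 7.61, 8.84 and 8.41 in CC-M, and 7.91, 8.12 and 8.02 in VISUAL. Its CC-S arrays were above those of VISUAL, barely so for replicate 3, with CC-M spanning both. SWEET8, needed in pollen development, gave 2.94, 2.39 and 2.94 in CC-S and 3.53, 2.98 and 3.28 in VISUAL, with all CC-S arrays lower. SWEET3, SWEET5, SWEET6 and SWEET7 stayed between 2.15 and 4.73 on every array. The median change of the 6 was -0.06 in CC-S and 0.15 in CC-M against VISUAL.

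Other genes of sugar movement gave a mixed picture. From 8 lists with 123 genes, 28 had a single-gene probe set. Of these 3 were called higher and 4 lower in CC-S than in VISUAL, with a median log2 change of 0.06, beside 10.1% and 9.07% of all probe sets. In CC-M 1 was higher and 2 lower, with a median of -0.02, beside 6.49% and 5.15%. Between CC-S and CC-M none was called by limma, with 4 at an unadjusted p under 0.05, where 12.8% of all probe sets passed. Nothing particular to these lists is read from the counts. The sucrose-proton symporters, which take up the sucrose that SWEET11 releases, the trehalose 6-phosphate genes and the plasma membrane proton pumps, together 42 genes, had no single-gene probe set and were not analysed here.

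Most of the called genes were in the list of tonoplast and ERD6-like transporters, of which 19 of 24 were measured. That list also held most of the measured genes, 19 of 28, so the share is not particular to it. AT1G54730 gave 7.22, 6.68 and 6.58 in CC-S, 6.25, 6.04 and 6.11 in CC-M and 4.54, 4.88 and 4.68 in VISUAL. The groups were fully apart, and its changes were 2.13 in CC-S and 1.43 in CC-M (limma adjusted p = 0.000126 and 0.00156). AT3G05400 gave 6.29, 6.39 and 7.01 in CC-S, 6.50, 7.35 and 7.17 in CC-M and 8.01, 8.17 and 8.03 in VISUAL. It was lower in both cultures, with changes of -1.51 and -1.06 (limma adjusted p = 0.00309 and 0.0253).

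AT3G05165 was also lower in both, by -0.64 in CC-S and -0.42 in CC-M (limma adjusted p = 0.00204 and 0.0243). TMT1, a proton-driven loader of sugar into the vacuole, rose by 0.55 in CC-S (limma adjusted p = 0.0268), and its change of 0.48 in CC-M was not called (limma adjusted p = 0.0679). AT1G08900 rose by 0.49 in CC-S (limma adjusted p = 0.0233), and SFP1 fell by 0.53 there (limma adjusted p = 0.0107). Over this list 3 genes were called higher and 3 lower in CC-S, with a median of 0.11.

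Among the remaining lists only AT2G18480, the single polyol and inositol transporter measured, was called. It gave 3.75, 4.11 and 4.00 in CC-S, 4.12, 5.13 and 4.46 in CC-M and 5.12, 7.05 and 5.82 in VISUAL, a change of -2.05 in CC-S (limma adjusted p = 0.0129) and of -1.43 in CC-M (limma adjusted p = 0.0793). All CC-S arrays were below all VISUAL arrays, and CC-M replicate 4 lay just above VISUAL replicate 3. None of the 4 hexose-proton symporters measured was called; in CC-S the changes with the smallest p were 0.45 for AT5G61520 and 0.06 for AT5G26250 (limma adjusted p = 0.0796 and 0.814). The 2 measured genes of the invertase list, AT1G62660 and CWINV6, had changes of 1.08 and -0.31 in CC-S (limma adjusted p = 0.061 and 0.373), and the 2 of sucrose synthesis and cleavage, SPS4F and AT3G54270, by -0.27 and -0.26 (limma adjusted p = 0.431 and 0.434).

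**Figure D4:**
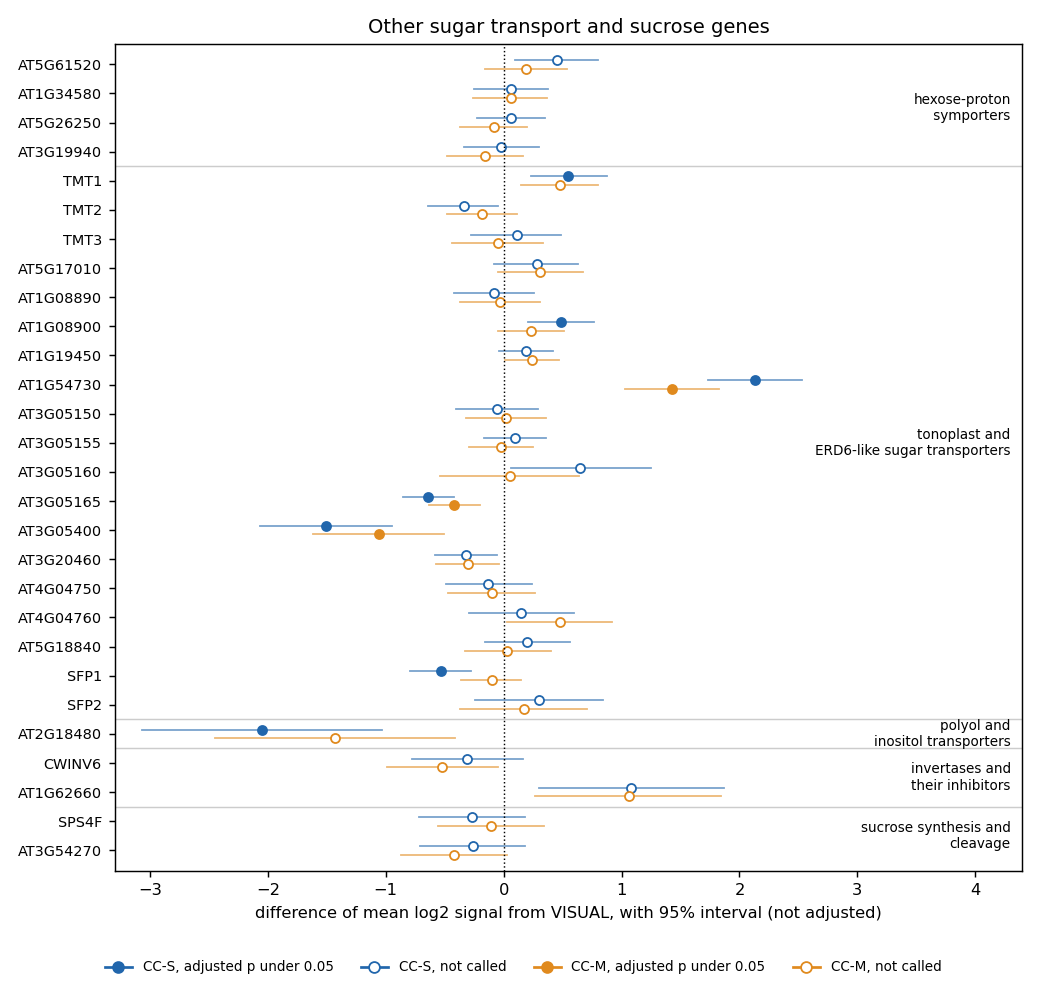
Log2 change from VISUAL (horizontal axis, with unadjusted 95% intervals) of the 28 measured genes of other sugar transport and sucrose lists in CC-S (blue) and CC-M (orange); filled points are called at an adjusted p under 0.05. AT1G54730 lies furthest to the right, at 2.13 and 1.43, and AT2G18480 and AT3G05400 lie furthest to the left in CC-S, at -2.05 and -1.51.

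The genes whose signal ran most like a called SWEET gene were picked by Pearson's r over the 9 arrays, 1 probe set per gene. For SWEET11 these were AT3G58690 (r = 0.98), AT1G55450 (0.979), AT3G06750 (0.974), AT5G12470 (0.974) and AT3G13740 (0.971). For SWEET1 they were AT5G58375 (r = 0.976), AT1G28310 (0.965), AT3G54910 (0.961), AT5G28919 (0.96) and AT5G11780 (0.957). SWEET4 was followed by AT4G14980 (r = 0.974), AT1G16850 (0.973), AT5G36290 (0.967), the plastid gene atpH (0.963) and AT1G60160 (0.961). The values for SWEET17 were lower, with AT4G11990 (r = 0.95), AT4G15070 (0.948), AT1G19970 (0.946), AT1G27700 (0.943) and AT5G39250 (0.943). No gene stood in more than 1 of the 4 lists. With 9 arrays and 16548 candidate genes, values of this size are the top of a long ranking and are given as a description. A high r does not mean a change of like size. The 5 genes listed for SWEET11 changed by 0.38 to 1.07 in CC-S against VISUAL, and SWEET11 by 2.33. Their r after subtracting group means was 0.904 to 0.958. They were picked by r over these same arrays, so this likeness within groups follows at least in part from the choice. The change of atpH was 0.18 and not called (limma adjusted p = 0.0604).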

How the data were processed

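Transcript levels were measured in 9 samples on one-colour Affymetrix arrays. The authors' deposited table holds log2 signals of 38408 probe sets. Affymetrix Expression Console made them, per the submitters' processing notes. The version, summary method and build were not given in the sources used here. Values were used as deposited, and all 9 columns were mapped to samples by title.

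Probe sets were named through the platform annotation, with symbols brought up to date through RefSeq's TAIR10.1 gene table. Of 16722 single-gene probe sets 16574 matched; 759 naming several genes and 20927 unnamed ones gave no gene.

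All 9 arrays entered 1 fit with a mean per group (R 4.3.3 with limma 3.58.1; lmFit, then eBayes with trend, 2-sided tests, 6 residual and 2.65 prior degrees of freedom). Benjamini-Hochberg adjustment ran over all 38408 probe sets. The test was checked on simulated data. Tables and figures used Python 3.11.15, pandas 2.3.3 and matplotlib 3.10.9. Array precision is limited by the number of arrays; depth does not apply.

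The text names all 10 SWEET genes and, from each sugar list, the called genes and otherwise the 2 with the smallest p in CC-S minus VISUAL. Per called SWEET gene it names the 5 most correlated genes. The members and lists were chosen with earlier results of these data known, and the loci of some marker names were completed after the annotation was seen. Alternatives were quantile normalization, median centring, a filter on dim probe sets, no trend, array weights, only the groups compared, a replicate block, a test beyond 1.5-fold and leaving out each array.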

Additional observations from a re-analysis of the deposited data

How the results depend on the processing

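Of the changes that were called, none turned sign under any alternative. All 31 sign changes were of SWEET changes that were not called. With median centring SWEET13 in CC-S minus VISUAL and SWEET14 in CC-M minus VISUAL both turned to -0.04. Leaving out 1 array at a time, values crossed 0 for SWEET13 (-0.17 to 0.28), SWEET14 (-0.10 to 0.41), SWEET15 (-0.19 to 1.74) and SWEET16 (-0.25 to 0.11) in CC-S minus VISUAL, for SWEET13 (-0.29 to 0.15), SWEET14 (-0.03 to 0.11) and SWEET15 (-0.03 to 1.89) in CC-M minus VISUAL, for SWEET9 (-0.03 to 0.03), SWEET14 (-0.14 to 0.38) and SWEET15 (-1.08 to 0.86) in CC-S minus CC-M, and against the midpoint for SWEET1 (-0.20 to 0.10), SWEET10 (-0.10 to 0.04), SWEET11 (-0.19 to 0.42), SWEET13 (-0.24 to 0.01), SWEET14 (-0.17 to 0.09) and SWEET15 (-0.44 to 1.48).

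The 3 SWEET calls in CC-S minus VISUAL became 1 to 3 without 1 array, and 0 when tested beyond 1.5-fold, where SWEET11 had a limma adjusted p of 0.0815. SWEET4 was also lost there with no intensity trend (0.0506) and with only the groups compared (0.093). The 2 calls in CC-M minus VISUAL became 1 to 3 without 1 array, 1 with median centring (SWEET17 at 0.055), 1 with only the groups compared (SWEET17 at 0.0695), 1 without the dimmest 40% of probe sets, a filter that removes SWEET17 itself, and 0 beyond 1.5-fold. Between CC-S and CC-M the SWEET count stayed 0 without 1 array, and against the midpoint it was 0 to 1. Over all probe sets, leaving out 1 array gave 5095 to 7043 calls for CC-S minus VISUAL (7365 as reported), 2450 to 4666 for CC-M minus VISUAL (4470), 0 to 309 for CC-S minus CC-M (8) and 25 to 775 for the midpoint (497). Beyond 1.5-fold these counts were 1212, 484, 0 and 6. The CC-S minus CC-M count was 42 with quantile normalization, 38 with median centring, 310 without dim probe sets, 0 with no trend, 847 with array weights and 4 with only those groups. The midpoint count was 210 with no trend and 769 with array weights. The cause was not tested. Dim signal limits SWEET9, SWEET10, SWEET13, SWEET14 and SWEET17, which the dim filter removes.

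No label says what a replicate number marks, and the numbers were not taken as pairs: 2 of 9 same-number pairs of arrays had deviations correlated over 0.1 (r from -0.03 to 0.12), and in 12 of 18 combinations an array correlated best with its own number, a hint from the data and not the design. With the replicate block, the midpoint count over all probe sets was 325, SWEET16 was called in CC-M minus VISUAL (-0.69, limma adjusted p = 0.0261, against 0.0261 to 1 over its alternatives other than leaving out an array), and no other SWEET call changed. The other sugar genes were refitted with this block only. It called AT1G62660 in CC-S and CC-M (limma adjusted p = 0.00398 and 0.00799, against 0.061 and 0.0907 as reported) and AT2G18480 in CC-M (0.0224 against 0.0793), and changed no other call among them.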

Other observations

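SWEET15 varied with the replicate number more than with the culture. Replicate numbers accounted for 72.1% of its variance over the 9 arrays, against a median of 17% over all probe sets, and groups for 6.8%. Replicate 3 was lowest in every group, and the highest array was replicate 5 in CC-S and replicate 4 in CC-M and VISUAL. A limma test of replicate number with the group in the fit, chosen after these values were seen, did not pass for SWEET15 (limma adjusted p = 0.575), and it passed for 0 of 38408 probe sets, of which 3066 had an unadjusted p under 0.05.

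SWEET2 had the same lowest and highest replicate in each group as SWEET15, with ranges of 1.23 in CC-S, 1.23 in CC-M and 0.21 in VISUAL on the log2 scale. The 2 genes correlated over the 9 arrays with r = 0.84 (Spearman 0.83), and with r = 0.91 after subtracting group means. SWEET2 did not pass the test of replicate number either (limma adjusted p = 0.625). SWEET16 went the other way, with replicate 3 its highest array in each group, at 4.84 in CC-S, 4.23 in CC-M and 5.15 in VISUAL. Its r with SWEET15 was -0.66 (Spearman -0.47), and -0.86 after subtracting group means. Replicate numbers accounted for 33.4% of the variance of SWEET16, which did not pass the same test (limma adjusted p = 0.585).

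The 5 genes most like SWEET15 over the 9 arrays, also looked up after its values were seen, were AT1G02020 (r = 0.928), AT1G61093 (0.927), SK20 (0.914), AT5G39230 (0.911) and AT3G61930 (0.895). They were picked for their likeness to SWEET15, so they share its pattern by choice. For each of them the mean of the replicate 3 arrays was the lowest of the 3 replicate numbers: for AT3G61930 it was 2.63, against 3.49 and 3.48 for replicates 4 and 5, and for AT1G61093 it was 3.43, against 4.07 and 4.08.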
